A study of Homo sapiens with 6 samples.

Results

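Gene expression was described in the control libraries of an RNA-seq series on cells labelled SW1990. The labels give SW1990 as a human line of pancreatic ductal adenocarcinoma, the common cancer of the pancreatic duct. The control libraries were the samples titled NC, 3 of the 6 samples in the series, and all 58735 genes of the deposited table were read in them. The other 3 samples received EPZ-5676, an inhibitor of the histone methyltransferase DOT1L, and were not used. The labels give no treatment for the controls in one field, while the treatment protocol gives them DMSO, the solvent, in the same volume as the compound. All cells grew in DMEM with fetal bovine serum and penicillin-streptomycin, and no source used here gives the time of harvest. No label says that the libraries came from separate cultures, so the spread between them may be technical. A line in culture also lacks the stroma, vessels and immune cells of a tumour.

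The pancreatic duct is lined by a simple epithelium that carries digestive enzymes from the acinar cells and adds a bicarbonate-rich fluid to them. Duct cells are held together by E-cadherin and claudins, are filled with the simple keratins KRT7, KRT8, KRT18 and KRT19, and pass chloride through CFTR. Tumours of the duct usually keep much of this programme and add secreted mucins and CEACAM surface proteins, while cells that shift towards a mesenchymal state lose E-cadherin and gain vimentin and fibronectin.

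Libraries were of similar depth, with 38132352, 35042563 and 35568711 reads assigned to genes in control replicates 1, 2 and 3. Reads were found for 20750, 20766 and 20975 genes. A count of 0 in a library allowed for up to 3 reads, which is 0.0787, 0.0856 and 0.0843 counts per 1000000 reads (CPM). Levels of different genes are compared in transcripts per 1000000 (TPM), which divide the reads by the gene's length, and a gene is counted as expressed at a mean of 1 TPM or more. Values after ± are the SD over the 3 libraries (n = 3 throughout). Where a gene had 0 reads in all 3 libraries, the level that 3 reads over the 3 libraries would give is stated as the limit, which covers counting error only.

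Checked against duct markers, the label was met in part only, and the identity of the cells is in doubt. The keratins KRT7, KRT8 and KRT18 were abundant, whereas the genes for E-cadherin (CDH1), the chloride channel CFTR, osteopontin (SPP1) and the tumour antigens CEACAM5 and CEACAM6 had 0 reads in every library. KRT19, the keratin most used to mark ducts, had 10, 26 and 11 reads in replicates 1, 2 and 3. PDX1, FOXA2 and GATA4, transcription factors of the pancreas and its endoderm, also had 0 reads. Other duct markers were expressed, among them SOX9, ELF3, EPCAM, MUC1 and CLDN4. In all, 16 of 25 duct markers were expressed (64%, against 55.6% of all protein-coding genes). Of 30 transcription factors of the pancreatic lineage, 12 were expressed (40%), among them GATA6, HNF4A and FOXA1 at low levels. The identity of the line was not tested, and every value below is one of the libraries labelled SW1990, whatever cells they hold.

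Control replicate 2 stood apart in blood genes. HBB, the beta chain of haemoglobin, had 0, 8429 and 4 reads in replicates 1, 2 and 3. HBA2, an alpha chain with the near-identical copy HBA1, had 374, 4417 and 216 reads in the same order. Some leukocyte genes went the same way. PTPRC, the CD45 antigen and a listed marker, had 0, 153 and 0 reads. The actin-bundling protein LCP1 had 0, 163 and 0, and the granulocyte receptor gene CSF3R had 0, 112 and 0. LCP1 and CSF3R are outside the marker lists and were picked after their values were seen, so their pattern is no test. CSF1R, a listed leukocyte marker, was not confined to replicate 2. Over the 20 leukocyte markers listed, the summed level was 6.53, 17.3 and 6.67 TPM, with 2 of the 20 at 0 reads in all libraries. Over 11 erythroid markers the sum was 42.7, 1073 and 29 TPM, with 6 of the 11 at 0 reads in every library. The part of these reads in other results was not tested. For the totals of expressed genes and for the marker lists, counts that changed without replicate 2 are given both ways. Counts by level class, gene family, transcription factor family, biotype and chromosome were not recomputed without it.

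**Figure D1:**
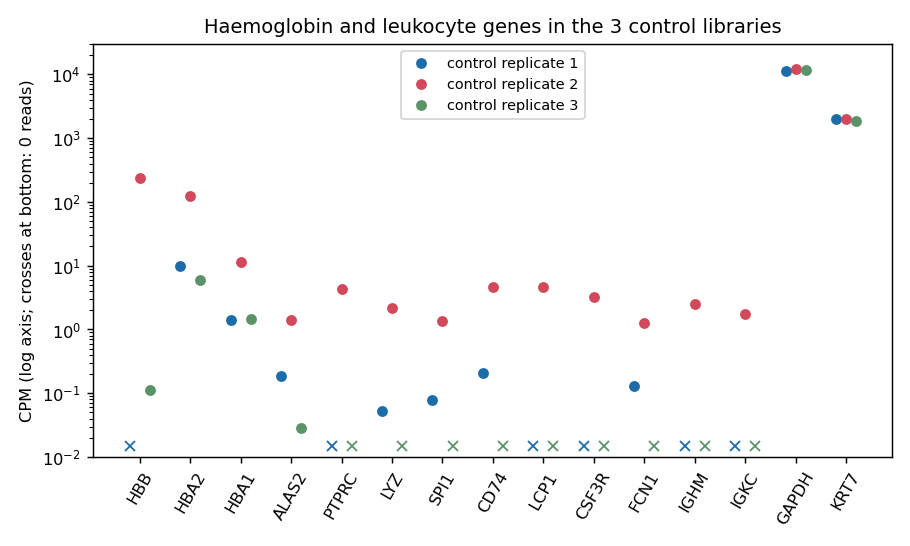
CPM on a log axis for haemoglobin and leukocyte genes in control replicates 1, 2 and 3, with GAPDH for scale; crosses at the bottom mark 0 reads. HBB reached 8429 reads in replicate 2 against 0 and 4 in replicates 1 and 3, while GAPDH was level in all 3. CD74, LCP1, CSF3R, FCN1, IGHM and IGKC were picked after their values were seen. PTPRC, LYZ and SPI1 were chosen from the 20 leukocyte markers listed, and ALAS2 and the haemoglobin genes from the 11 erythroid ones. The other listed markers are not plotted, among them CSF1R, which was not confined to replicate 2.

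Expressed genes numbered 13989 of 58735 (23.8%), and 34030 genes had 0 reads in all 3 libraries. Without control replicate 2 the number was 14098. Protein-coding genes made up most of them, with 11088 of 19951 expressed (55.6%), and 11136 without replicate 2. A further 4808 protein-coding genes (24.1%) had 0 reads. Levels were widely spread, with 4595 protein-coding genes at 1 to 10 TPM, 5110 at 10 to 100 TPM, 1249 at 100 to 1000 TPM and 134 at 1000 TPM or more. The median was 14.3 TPM over the expressed protein-coding genes and 2.16 TPM over all protein-coding genes.

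**Figure D2:**
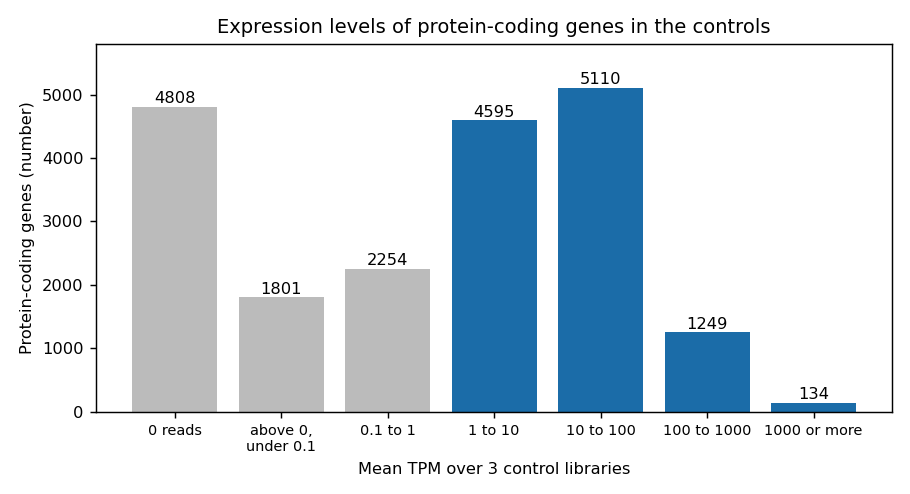
Number of protein-coding genes in each class of mean TPM over the 3 control libraries. The class of 10 to 100 TPM held the most genes (5110), and 4808 genes had 0 reads.

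A small number of genes took much of each library. The 10 most abundant genes held 7.97 ± 0.117% of the reads, the top 100 held 28.9 ± 0.723% and the top 1000 held 63.2 ± 1.05%. Protein-coding genes took 97.4 ± 0.109% of reads, while pseudogenes took 1.32 ± 0.0502%. Genes of the mitochondrial genome, which encode subunits of the respiratory chain and their ribosomal RNAs, took 2.36, 2.77 and 2.71% of reads. Cytosolic ribosomal protein genes took 13.9, 13.7 and 12.4%. The widest 95% Wilson interval of any such share was 0.0318 percentage points, which covers counting error only, since amplified reads without molecular identifiers are not independent molecules. The mitochondrial and ribosomal protein shares differed between libraries by more than this. Without replicate 2 their means were 2.53 and 13.1%.

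By the deposited lengths the most abundant nuclear protein-coding gene was TMSB10, a thymosin that binds actin monomers, at 15978, 16665 and 15165 TPM in replicates 1, 2 and 3 (15936 ± 751). GAPDH, a glycolytic enzyme, followed at 12072, 12309.6 and 12242 TPM and was the steadier of the pair (12208 ± 122). Other glycolytic genes stood among the top 25: TPI1 at 4278 ± 259 TPM and ENO1 at 4155 ± 146 TPM. The ferritin light chain FTL, which stores iron, reached 7854 ± 179 TPM. LGALS1, a secreted galectin, reached 6573 ± 169.8 TPM, and the calcium-binding protein gene S100A6 4205 ± 137 TPM. BSG, the surface protein basigin that carries lactate transporters to the membrane, was at 3701 ± 303 TPM, and PSAP, the precursor of the lysosomal saposins, at 3846 ± 32.7 TPM.

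The order depended on the length used. With each gene scaled by its longest transcript, 20 of the 25 stayed in the top 25, and GAPDH at 13788 TPM stood above TMSB10 at 11321 TPM. Translation genes filled most other places. The top 25 held 12 ribosomal protein genes, and the top 100 held 39. The elongation factor EEF2, which moves the ribosome along the mRNA, was at 7021 ± 401 TPM. EEF1A1, which delivers aminoacyl-tRNA, was less even: 7770.1, 5523 and 5928 TPM, with replicate 1 above the others. Ribosomal proteins of the large subunit reached 7054 ± 313 TPM (RPL7A) and 5272 ± 109 TPM (RPLP0), and of the small subunit 7887 ± 593 TPM (RPS2) and 5178 ± 557 TPM (RPS12). Of the 83 cytosolic ribosomal protein genes, 81 were expressed. Many have processed pseudogenes that are nearly identical, so that reads could be split between copies.

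Genes of the translation machinery often start with a 5′ terminal oligopyrimidine (TOP) tract, a cytosine followed by a run of pyrimidines that ties their translation to growth signals. The tract was searched for in RefSeq promoter windows (GRCh38.p14, 250 bases before to 50 after the annotated start), as a C followed by at least 5 pyrimidines beginning within 5 bases of the start. It was found in 47 of 65 ribosomal protein genes with a window (72.3%) and in 11.4% of all 14867 protein-coding genes with one. Among genes at 1000 TPM or more the share was 40.8%, and 23% after removal of ribosomal protein genes. It was 10.6% among genes with 0 reads. A match is a description of the letters. To show the tract in members of the top 25, the windows of RPS12 (chr6:132814319-132814618, plus strand), RPLP0 (chr12:120201062-120201361, minus strand) and EEF2 (chr19:3985414-3985713, minus strand) are printed 5′ to 3′, with the tract in capitals.
RPS12: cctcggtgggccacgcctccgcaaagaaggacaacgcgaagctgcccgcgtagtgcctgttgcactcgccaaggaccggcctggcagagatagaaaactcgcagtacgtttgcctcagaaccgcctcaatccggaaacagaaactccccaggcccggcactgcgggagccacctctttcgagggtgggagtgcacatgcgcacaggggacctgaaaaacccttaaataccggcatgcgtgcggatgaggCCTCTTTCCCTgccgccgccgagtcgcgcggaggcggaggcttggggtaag
RPLP0: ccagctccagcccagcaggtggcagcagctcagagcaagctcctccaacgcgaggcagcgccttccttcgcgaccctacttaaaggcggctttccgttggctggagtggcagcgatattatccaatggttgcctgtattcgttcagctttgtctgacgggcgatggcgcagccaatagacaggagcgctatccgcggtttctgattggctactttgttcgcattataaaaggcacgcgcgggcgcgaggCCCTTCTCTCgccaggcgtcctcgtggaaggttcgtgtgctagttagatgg
EEF2: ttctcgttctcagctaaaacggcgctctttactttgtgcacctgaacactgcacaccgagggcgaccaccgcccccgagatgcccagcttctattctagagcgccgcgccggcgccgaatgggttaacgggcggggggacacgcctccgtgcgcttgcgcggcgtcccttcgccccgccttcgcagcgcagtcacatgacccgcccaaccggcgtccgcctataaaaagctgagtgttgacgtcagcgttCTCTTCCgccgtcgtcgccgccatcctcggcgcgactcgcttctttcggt

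One gene with a narrow normal distribution stood among the top 25. FOLR1 (ENSG00000110195, chromosome 11, 72189558 to 72196323), the folate receptor alpha of some epithelia, was at 5537, 6030.3 and 5761 TPM in replicates 1, 2 and 3. The 3 libraries were close to each other and to their mean of 5776 ± 247 TPM.

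Of 25 duct markers, 16 were expressed (64.0%, against 55.6% of all protein-coding genes), 4 had reads under 1 TPM and 5 had 0 reads, and their summed level was 3959 to 4132 TPM per library. Most of that sum came from the keratins that form the filaments of simple epithelia. KRT7 (ENSG00000135480, chromosome 12, 52232520 to 52252186) was at 1505, 1496 and 1420.0 TPM, KRT8 at 1293, 1253 and 1166 TPM and KRT18 at 1158, 1214 and 1193 TPM. KRT19 (chromosome 17, 41523617 to 41528308), their partner in ducts, was at 0.351, 0.970 and 0.419 TPM, under 1 TPM in every library. Tight junctions were represented by CLDN7 at 102 ± 0.0773 TPM and CLDN4 at 62.2 ± 1.73 TPM, with CLDN1 at 2.30 TPM.

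Markers on the cell surface differed in level. EPCAM, the adhesion molecule used to sort epithelial cells, was at 3.36, 1.73 and 2.19 TPM, highest in replicate 1. MUC1, a membrane mucin, was at 15.7, 25.6 and 25.2 TPM, lowest in replicate 1. TSPAN8, a tetraspanin of digestive epithelia, was at 10.2 ± 0.430 TPM. Duct transcription factors were present: SOX9, which marks duct and progenitor cells, at 13 ± 1.72 TPM, and the ETS factor ELF3 at 23.8 TPM. The genes with reads but under 1 TPM on average were KRT19, CA2 (carbonic anhydrase, 0.725 TPM), MMP7 (matrilysin, 0.460 TPM) and SCTR (the secretin receptor, 0.224 TPM).

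Fluid transport genes were among the 5 duct markers with 0 reads. CFTR (chromosome 7, 117465784 to 117715971) had a limit of 0.00920 TPM, and the bicarbonate cotransporter gene SLC4A4 was also without reads. SPP1 had a limit of 0.0370 TPM. ONECUT1, a transcription factor of the developing duct, and PKHD1, the fibrocystin gene of the primary cilium, completed the 5.

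**Figure D3:**
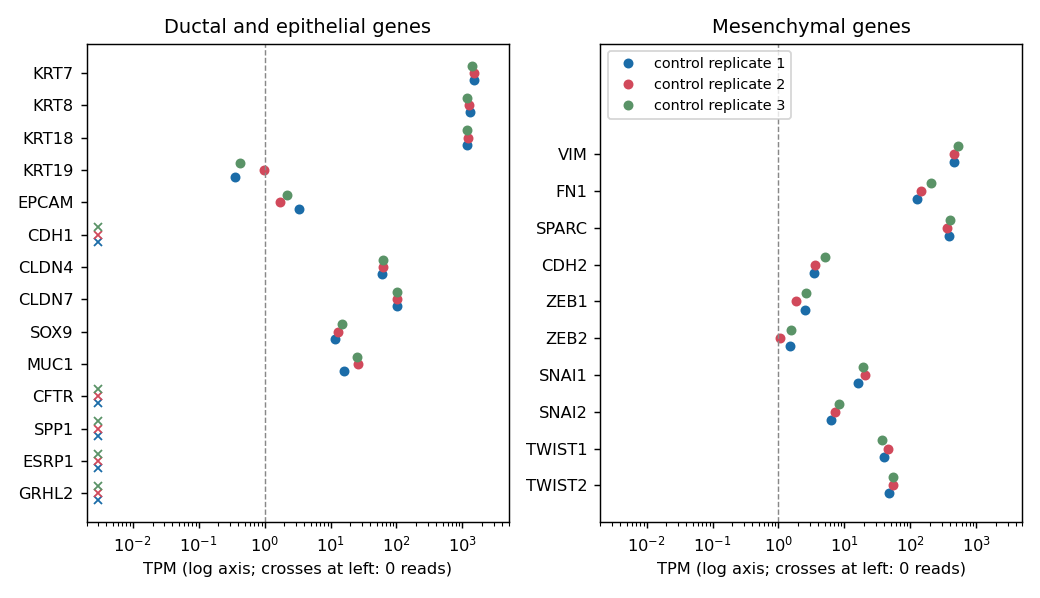
TPM on a log axis of epithelial and mesenchymal genes in control replicates 1, 2 and 3, with the dashed line at 1 TPM and crosses at the left for 0 reads. KRT7, KRT8 and KRT18 lay above 1000 TPM, KRT19 below 1 TPM, and CDH1 and CFTR had 0 reads in all 3 libraries.

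Epithelial junction genes were divided. Of 40 genes of the epithelial list, 23 were expressed (57.5%, near the 55.6% of all protein-coding genes). A further 9 had 0 reads in all libraries, as did 24.1% of all protein-coding genes. CDH1 (chromosome 16, 68737225 to 68835548), which encodes E-cadherin, was among the 9, with a limit of 0.0139 TPM. So were GRHL2 and OVOL2, transcription factors that maintain epithelia, ESRP1, the epithelial splicing regulator, and RAB25, a small GTPase of epithelial recycling. The related ESRP2 was at 5.66 TPM. Desmosomal genes DSC2, DSC3 and DSG3 had 0 reads, while DSG2 was at 33.2 TPM and the linker desmoplakin (DSP) at 30.5 TPM. Cytoplasmic partners of cadherins were higher: plakoglobin (JUP) at 246 TPM, alpha-catenin (CTNNA1) at 137 TPM, and plakophilin 3 (PKP3) at 92.0 TPM. Occludin (OCLN), a tight junction protein, was at 0.0174 TPM from 0, 2 and 2 reads.

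Of 24 mesenchymal genes, 18 were expressed (75%, against 55.6% of all protein-coding genes) and 2 had 0 reads. Their sum was 3760 to 3847 TPM. S100A4, a calcium-binding protein of motile cells, gave most of it at 2415 ± 68.3 TPM. Vimentin (VIM), the mesenchymal filament protein, was at 461, 459 and 526 TPM. Fibronectin (FN1), a matrix protein, was at 125, 145 and 202 TPM, highest in replicate 3. The matrix genes SPARC and MMP2 were at 379.6 ± 20 and 174 TPM. N-cadherin (CDH2), often found where E-cadherin is not, was only at 3.47, 3.56 and 5.07 TPM.

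Transcription factors that repress CDH1 in other settings were all expressed, at different levels. TWIST2 was at 52.1 ± 4.08 TPM and TWIST1 at 41.1 ± 4.78 TPM. SNAI1 was at 18.7 ± 2.31 TPM and SNAI2 at 7.26 TPM. ZEB1 and ZEB2 were lowest, at 2.34 and 1.37 TPM. Of 18 fibroblast and stellate cell markers, 11 were expressed (61.1%, against 55.6% of all protein-coding genes). There was 1 with 0 reads, and the sum was 961 to 1131 TPM. SPARC and COL5A1, a minor fibrillar collagen at 384 TPM, gave most of it, with fibulin 1 (FBLN1) at 196 TPM and fibrillin 1 (FBN1) at 29 TPM. The proteoglycan genes DCN and LUM were at 8.35 and 4.00 TPM. COL1A1 was at 14.5 TPM but its partner chain COL1A2 at 0.0104 TPM, COL3A1 was at 0.152 TPM, and the fibroblast receptor gene PDGFRA had 0 reads (limit 0.00883 TPM).

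Markers of the other pancreatic cells were mostly silent, whereas 55.6% of all protein-coding genes were expressed and 24.1% had 0 reads. Of 29 acinar genes, 3 were expressed (2 without replicate 2) and 16 had 0 reads, among them the trypsinogen PRSS1 and the carboxypeptidase CPA1. The highest was PRSS3, mesotrypsin, at 39.7 TPM, whose reads could be shared with close copies. SPINK1, a trypsin inhibitor, was at 2.24 TPM and the acinar factor BHLHA15 at 1.19 TPM. Of 28 islet genes, 2 were expressed (3 without replicate 2), among them PCSK1, a prohormone convertase, at 70.8 ± 6.03 TPM. Insulin (INS), glucagon (GCG) and somatostatin (SST) had 0 reads, with a limit of 0.111 TPM for INS.

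Outside the pancreas, no list of markers was expressed in full. The share expressed over all protein-coding genes was 55.6%. Gastric markers had 4 of 16 expressed, with PSCA, the prostate stem cell antigen, at 364 ± 15.6 TPM and the trefoil peptide TFF1 at 7.17 TPM. Intestinal markers had 2 of 18, among them CDHR5 at 1.27 TPM. Hepatocyte markers had 2 of 20, led by the urea cycle enzyme CPS1 at 131 ± 28.4 TPM, while albumin (ALB) had 0 reads. Endothelial markers had 2 of 14, EGFL7 at 235 TPM and ESAM at 49.3 TPM, with PECAM1 and CDH5 at 0.596 and 0.186 TPM. Muscle markers had 2 of 15, myoglobin (MB) at 53.7 TPM and desmin (DES) at 13.2 TPM. Neuronal markers had 1 of 16, the tubulin TUBB3 at 1.12 TPM.

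Leukocyte and erythroid markers counted 3 expressed of 20 and 3 of 11, against 55.6% of all protein-coding genes. Without control replicate 2 both counts were 2. The leukocyte count included CSF1R, a macrophage receptor, which had 140, 107 and 79 reads in replicates 1, 2 and 3 and was not confined to replicate 2.

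**Figure D4:**
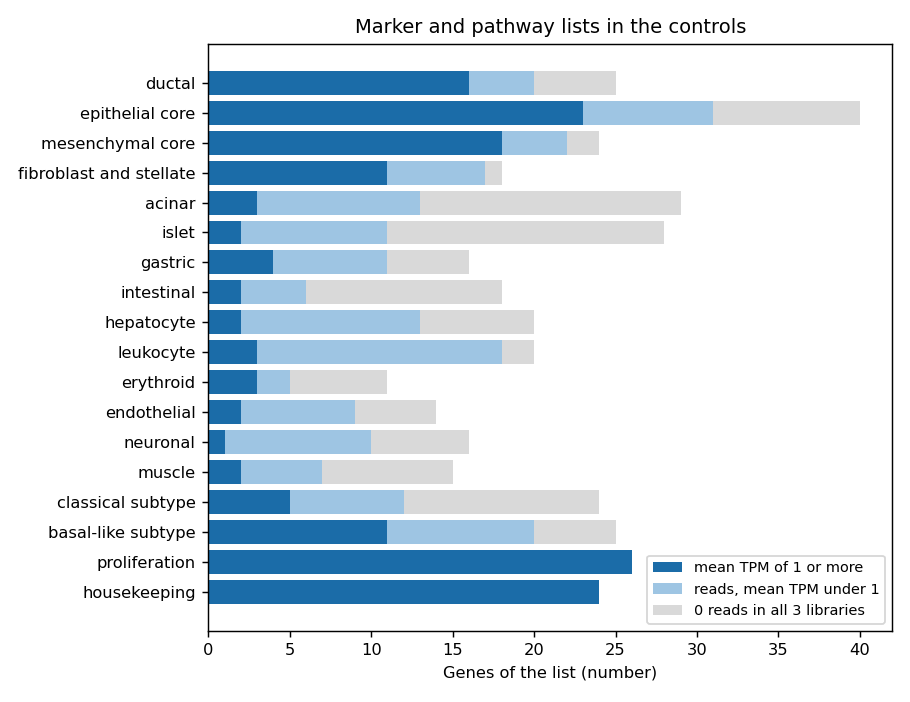
Number of genes of each marker or pathway list that were expressed (mean of 1 TPM or more), had reads under 1 TPM, or had 0 reads in the 3 control libraries. All 26 proliferation and 24 housekeeping genes were expressed, against 3 of 29 acinar and 2 of 28 islet genes.

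Transcription factors of the pancreatic lineage were expressed in 12 of 30 cases (40%, against 55.6% of all protein-coding genes), and 11 had 0 reads. PDX1, which specifies the pancreas, had 0 reads (limit 0.0344 TPM). FOXA2, GATA4 and NKX6-1, further endodermal and islet factors, and PTF1A, the acinar factor, also had 0 reads. Those present were led by KLF5, a growth factor-responsive zinc finger protein, at 39.1 TPM and HES1, a Notch target, at 31.1 TPM. MNX1 was at 13.6 TPM and HHEX at 8.43 TPM. GATA6, HNF4A and FOXA1, factors of the classical tumour programme, were at 2.74, 2.15 and 2.07 TPM.

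Over all transcription factors, by the family column of the deposited table, 835 of 1541 were expressed (54.2%), near the 55.6% of all protein-coding genes. A further 340 had 0 reads. The highest were YBX1, a cold shock protein that binds RNA and DNA, at 1779 TPM and the chromatin protein HMGA1 at 1158 TPM. MYBL2, a cell cycle factor, was at 1003 TPM. Families differed in the share expressed. Homeobox genes had 73 of 190 expressed (38.4%) and POU genes 2 of 16, while MYB genes had 21 of 22 and bZIP genes 38 of 48. Among homeobox genes BARX1, a factor of the developing stomach and jaw, was highest by the deposited lengths at 175, 187 and 178 TPM. PITX1, a hindlimb factor, was at 156, 175 and 167 TPM. Scaled by the longest transcript, PITX1 at 172 TPM stood above BARX1 at 148 TPM. HOXC10, a posterior HOX gene, was at 116.1, 128 and 148 TPM, lowest in replicate 1. In the HOX clusters 22 of 39 genes were expressed, and after HOXC10 came HOXC9 at 39.6 TPM, HOXB7 at 32.4 TPM, HOXC13 at 30 TPM and HOXC11 at 28.2 TPM.

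Lists from the basal-like and classical tumour subtypes were both expressed in part. Of 25 basal-like genes, 11 were expressed (44.0%, against 55.6% of all protein-coding genes), with a sum of 3028 to 3148 TPM per library. KRT7, also on the duct list, gave 1474 TPM of it. The others included KRT17, a keratin of basal epithelia, at 606 ± 14.6 TPM, and the glucose transporter gene SLC2A1 at 558 ± 76.0 TPM. FAM83A was at 161 TPM and S100A2 at 128 TPM. Of 24 classical genes, 5 were expressed (4 without replicate 2) and 12 had 0 reads, with a sum of 53.6 to 64.2 TPM. The highest was SPINK4, a protease inhibitor of secretory cells, at 36.8 TPM. LYZ, lysozyme, counted as expressed through replicate 2 alone, with 2, 77 and 0 reads. Basal keratins outside the list, named after their values were seen, were low: KRT5 at 0.0255 TPM and KRT14 at 0.411 TPM.

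A list of pancreatic tumour antigens, which also holds secreted inhibitors and basement membrane genes, had 17 of 28 genes expressed. This was 60.7%, against 55.6% of all protein-coding genes. SLPI, a secreted protease inhibitor, was at 2567 ± 305 TPM. TIMP1, which inhibits metalloproteinases, was at 1279 ± 127 TPM, IGFBP3 at 1142 ± 42.0 TPM and S100P at 1009.7 ± 68.8 TPM. Mesothelin (MSLN), a target of antibody trials, was at 391 ± 26.4 TPM. The basement membrane genes ITGB4 and LAMB3 were at 523 and 489.8 TPM. The membrane mucins MUC4 and MUC16, typical of this cancer, were at 0.0177 and 0.0135 TPM. CEACAM5, CEACAM6 and the secreted lectin REG4 had 0 reads, with limits of 0.0257 and 0.0282 TPM for the CEACAM genes.

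Of 28 tumour suppressors, 27 were expressed (96.4%, against 55.6% of all protein-coding genes) and none had 0 reads. The exception was RNF43, a WNT receptor ligase, at 0.397 TPM. CDKN2A (ENSG00000147889, chromosome 9, 21967753 to 21995301), which encodes the p16 and p14ARF proteins and is often deleted in this cancer, was at 662, 581 and 565 TPM (602 ± 52.1). Scaled by the longest transcript, the mean was 1444 TPM. Its neighbours were lower, with CDKN2B at 30.3 TPM, MTAP at 5.17 TPM and DMRTA1 at 1.18 TPM. In the interferon alpha cluster nearby, 13 of 13 genes had 0 reads. SMAD4, a mediator of TGF-beta signals, was at 3.54 TPM. These are RNA levels and give no sequence of the genes. DOT1L, the enzyme that the compound of the series inhibits, was at 20.1, 27.2 and 27.7 TPM, lowest in replicate 1.

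All 26 proliferation genes were expressed, against 55.6% of all protein-coding genes. UBE2C and CDC20, which act at the anaphase-promoting complex, were at 748 and 379 TPM. MKI67, the Ki-67 antigen, was at 13.8, 13.3 and 23.9 TPM, highest in replicate 3.

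Among keratins, 12 of 55 were expressed and 25 had 0 reads, against 55.6% and 24.1% of all protein-coding genes. KRT81 (chromosome 12, 52285913 to 52291534), a hair keratin, was the highest by the deposited lengths, at 1784, 1763 and 1768 TPM (1772 ± 10.8), and nearly level in the 3 libraries. The order depended on the length used: scaled by the longest transcript, KRT81 was at 1259 TPM and KRT7 at 2443 TPM. KRT81 lies inside the span annotated for KRT86, at 19.2 TPM, and whether the counting used strand is not stated in these sources. KRT80, KRT10 and KRT16, of stratified epithelia, were at 114, 65.3 and 21.2 TPM.

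Families of the cell surface and matrix differed in the share expressed, which was 55.6% over all protein-coding genes. Laminins, tetraspanins and S100 genes were above that share, and integrins, collagens, claudins and mucins below it. S100 genes had 13 of 20 expressed, with S100A11 at 2632 ± 243 TPM, S100A16 at 2173 ± 27.5 TPM and S100A10 at 1176 ± 179.5 TPM. Integrins had 12 of 26 expressed, led by ITGA5, the fibronectin receptor chain, at 725, 875 and 914 TPM, then ITGB4 and the laminin receptor chain ITGA3 at 308 ± 27.8 TPM. Laminins had 10 of 12 and collagens 19 of 44. Tetraspanins had 22 of 29, led by the vesicle protein CD63 at 1289 ± 32.9 TPM. Mucins had 1 of 17, MUC1, and claudins 7 of 24.

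Cytokine families were mostly silent, whereas 55.6% of all protein-coding genes were expressed. Chemokines had 7 of 43 expressed, with CXCL8, a chemokine for neutrophils, at 47.4, 34.2 and 30.1 TPM and CCL5 at 17.6, 23.3 and 20.2 TPM. Interleukins had 6 of 38, led by IL11 at 51.0 ± 1.89 TPM, followed by IL18 at 14.3 ± 1.06 TPM.

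Germline genes were expressed in part, and less often than the 55.6% of all protein-coding genes. MAGE genes had 8 of 34 expressed. Those also expressed in normal tissue were highest, MAGED2 at 231 TPM and MAGEF1 at 68.1 TPM. The cancer-testis members MAGEA1, MAGEA6 and MAGEB2 were at 58.2 ± 4.99, 45.5 ± 4.67 and 42.8 ± 4.26 TPM. PRAME was the 1 of 23 genes of its family expressed, at 16.2 ± 1.23 TPM. GAGE12H stood for a block of near-identical genes at 45.6 ± 3.62 TPM, and for such copies the split of reads is uncertain.

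Several large families were silent almost throughout, whereas 55.6% of all protein-coding genes were expressed and 24.1% had 0 reads. Of 386 olfactory receptor genes, 374 had 0 reads and 2 were expressed, OR2B6 at 2.72 TPM from 27, 19 and 43 reads and OR2W3 at 1.56 TPM. All olfactory receptors had 208 reads in the 3 libraries together. Of 94 keratin-associated protein genes, which build hair, 91 had 0 reads and none reached 1 TPM. The 18 late cornified envelope genes, the 53 genes of the clustered protocadherins and the 8 sarcomeric myosins had none expressed. Beta-defensins had 1 of 39 expressed (DEFB1, 1.37, 0.365 and 4.46 TPM) and taste receptors 1 of 27 (TAS1R3, 5.07 TPM). Receptors for GABA and glutamate had 6 of 45, led by GABRE at 13.2 TPM and GRIN2D at 12.7 TPM.

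Some genes with 0 reads lay in runs of neighbours, though no expected run length was computed. The longest run of neighbouring protein-coding genes with 0 reads was on chromosome 11 (48216810 to 57237314 in GRCh38), from OR4B1 to APLNR, with 66 genes, of which 57 were olfactory receptors. A run on chromosome 17 (41029697 to 41350812) from KRTAP1-4 to KRT33A held 31 genes, 30 of them keratin-associated. A run on chromosome 21 from KRTAP19-2 to KRTAP19-8 held 22. Runs without genes of these families included DEFA6 to USP17L3 on chromosome 8 with 39 genes and AADACL4 to PDPN on chromosome 1 with 31. The share of protein-coding genes expressed was lowest on chromosomes X (43.1%), 21 (48.1%) and 11 (48.9%) and highest on 22 (64.0%) and 16 (63.4%).

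The CpG content of promoters differed with the level. CpG dinucleotides are depleted from most of the genome and kept in CpG island promoters, so the observed count over that expected from base composition is a usual measure. In the same RefSeq windows its median was 0.329 for genes with 0 reads, 0.502 under 0.1 TPM, 0.631 at 0.1 to 1 TPM, 0.833 at 1 to 10 TPM and 0.867 at 1000 TPM or more. A ratio of 0.6 or more was found in 30.9% of genes with 0 reads and in 87.5% of genes at 10 to 100 TPM, against 66.6% of all. Olfactory receptors had a median of 0.122 and keratin-associated protein genes 0.178. The letters TATAAA, searched on the coding strand 40 to 15 bases before the start, were in 34 of 80 keratin-associated protein genes with a window (42.5%), in 3.47% of all genes and in 8.19% of genes with 0 reads. The share did not run one way with the level: it was 1.21% at 10 to 100 TPM and 9.18% at 1000 TPM or more, or 13.1% there without ribosomal protein genes. These are descriptions across genes, which share families and base composition.

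Single genes lay on either side of the medians. Windows of a silent gene with more CpG than the silent median of 6 (CFTR, chr7:117479775-117480074, plus strand, 12 CpG, ratio 0.560), a gene with 2 reads in all and few CpG (KRTAP19-1, chr21:30480318-30480617, minus strand, 1 CpG, ratio 0.0726) and an abundant gene with few (S100P, chr4:6693628-6693927, plus strand, 5 CpG, ratio 0.213) are printed to show the contrast, 5′ to 3′ from RefSeq GRCh38.p14, with each CG in capitals.
CFTR: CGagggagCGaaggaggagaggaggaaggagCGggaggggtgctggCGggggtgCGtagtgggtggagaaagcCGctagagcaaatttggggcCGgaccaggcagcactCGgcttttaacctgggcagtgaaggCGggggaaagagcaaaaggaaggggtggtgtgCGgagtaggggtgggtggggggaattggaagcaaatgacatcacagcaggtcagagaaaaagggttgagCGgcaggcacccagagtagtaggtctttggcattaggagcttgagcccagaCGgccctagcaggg
KRTAP19-1: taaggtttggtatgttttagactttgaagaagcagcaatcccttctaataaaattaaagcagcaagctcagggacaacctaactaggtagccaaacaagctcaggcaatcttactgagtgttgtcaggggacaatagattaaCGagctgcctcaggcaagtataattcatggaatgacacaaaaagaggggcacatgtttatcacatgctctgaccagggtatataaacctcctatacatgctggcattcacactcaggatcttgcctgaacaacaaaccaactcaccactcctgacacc
S100P: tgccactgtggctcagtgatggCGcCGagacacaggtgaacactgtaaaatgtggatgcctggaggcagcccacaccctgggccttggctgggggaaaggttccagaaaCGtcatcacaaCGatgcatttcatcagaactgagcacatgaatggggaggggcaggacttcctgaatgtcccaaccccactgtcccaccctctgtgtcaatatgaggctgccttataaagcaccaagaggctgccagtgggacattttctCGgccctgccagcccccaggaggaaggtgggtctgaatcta

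Genes of other biotypes were expressed less often. Antisense genes had 687 of 5583 expressed, lincRNA genes 604 of 7629 and processed pseudogenes 613 of 10191. Without a known strand setting, antisense reads cannot be told from those of the partner gene. Of the 120 of 1879 miRNA genes that reached 1 TPM, 108 had a mean under 10 reads, since TPM rises steeply for such short genes. The non-coding gene with most reads was the mitochondrial ribosomal RNA MT-RNR2, at 4950.0, 4481 and 3918 CPM in replicates 1, 2 and 3. GPX1, a glutathione peroxidase that this annotation lists as a polymorphic pseudogene, was at 1656, 1593 and 1498 CPM. The ribosomal protein pseudogenes RPS2P5 and RPL9P9 were at 1297, 1406 and 1132 and 893, 787 and 772 CPM, and their reads may belong to the parent genes. Among mitochondrial protein-coding genes, MT-CO1 of cytochrome oxidase had the highest mean, 13121 ± 707 TPM. MT-CO3 followed at 12623 ± 1999 TPM and stood above it in replicate 2, at 14026 against 13025 TPM.

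Spread among the libraries was small for most genes. Over 8003 protein-coding genes at a mean of 10 CPM or more, the median SD of log2(CPM + 0.5) was 0.15, with quartiles of 0.09 and 0.23. The SD was over 0.5 for 47 genes and over 1 for 2. These 2 were HBB (SD 5.06) and HBA2 (SD 2.30), blood genes that were highest in replicate 2. HBA2 also had 374 and 216 reads in replicates 1 and 3, where HBB had 0 and 4. The next was SMN1, a spliceosome assembly gene with the near-identical copy SMN2, at 9.52, 34.8 and 27.1 CPM. TAOK1, a kinase, was at 26.5, 11.9 and 31.7 CPM and lowest in replicate 2. Replicate 2 was the lowest library for 36 of the 47 genes over 0.5 and for 3503 of all 8003. The 47 had a median length of 8273 bases against 5170 for all 8003. At the other end MXI1, a MYC antagonist, was at 119, 119.7 and 119.8 CPM and ECHS1, an enzyme of fatty acid oxidation, at 218, 219 and 219 CPM.

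Pairs of libraries correlated at Pearson r of 0.986 (replicates 1 and 2), 0.990 (1 and 3) and 0.988 (2 and 3) in log2 CPM; the points are genes of the same libraries and are no replicates. Counts differed by more than sampling noise in every pair, with a chi-square per gene of 37.1, 30.6 and 20.7, so none was a second deposit of the same counts. This does not show that they came from separate cultures. Genes 1.5-fold or more apart numbered 627 (7.83%), 202 (2.52%) and 396 (4.95%). The median coefficient of variation was 20.1% at 1 to 10 CPM, 11.6% at 10 to 100 CPM and 7.19% at 100 to 1000 CPM, where counting alone gives 7.86, 3.03 and 1.25%. The common dispersion of edgeR over 14231 genes was 0.0274, a biological coefficient of variation of 16.5%.

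The deviations followed base composition, length and level. In the 10% of genes whose longest transcript had the lowest GC content (median 37.7%), the median deviation from the gene's mean was 0.20, -0.24 and 0.05 on the log2 scale in replicates 1, 2 and 3. In the 10% with the highest GC (median 64.5%) it was -0.09, 0.09 and 0.01. In the longest genes it was 0.03, -0.18 and 0.15, and in the shortest 0.02, 0.03 and -0.05. In the 10% of genes with the lowest mean CPM it was 0.08, -0.15 and 0.07, and in the 10% with the highest -0.01, 0.04 and -0.01. Replicate 2 was thus low in long genes, in genes of low GC content and in genes of low CPM. Replicate 1 was high in genes of low GC content and, less so, of low CPM. The part of GC content, length and level in the values of single genes was not tested.

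**Figure D5:**
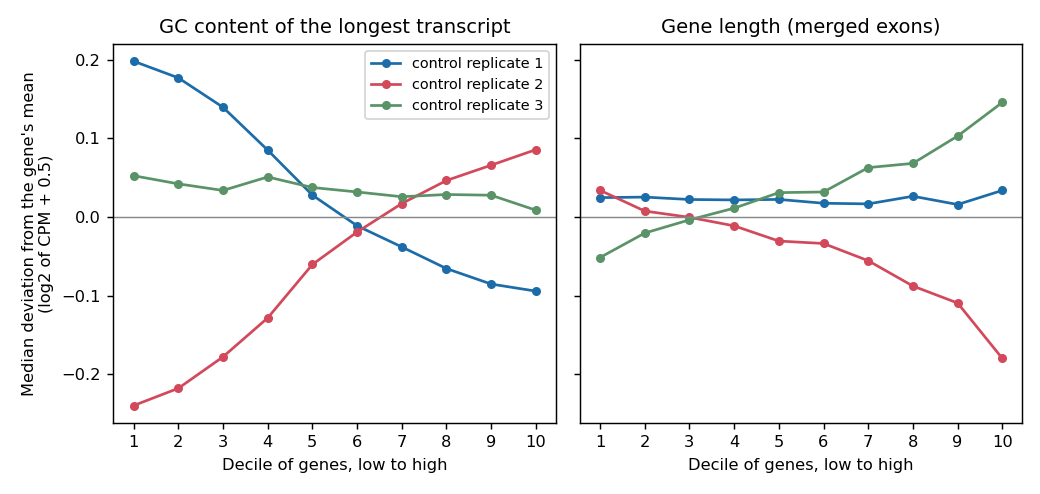
Median deviation of each control library from the gene's mean, in log2(CPM + 0.5), over deciles of genes ordered by GC content or by length. In the decile of lowest GC content replicate 1 was at 0.20 and replicate 2 at -0.24.

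By a rule chosen after the values were seen (at least 30 reads and 5 times the CPM of both other libraries), 9 genes were high in replicate 1 alone, 38 in replicate 2 and 11 in replicate 3. The 38 genes of replicate 2 held 15332 of its reads, 34 of them were protein-coding, and 18 had 0 reads in both other libraries. They included the immunoglobulin genes IGHM and IGKC, with 0, 89 and 0 and 0, 61 and 0 reads, and the receptor gene CXCR2, with 0, 45 and 0 reads. In replicate 3 the most-read gene was BOLA2B, which has near-identical copies, with 22, 26 and 362 reads.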

How the data were processed

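RNA-seq of the 3 control libraries was analysed, and the columns of the treated samples were not used. Per the labels' protocols, mRNA was selected on oligo(dT) beads and second strands were made with dUTP, a stranded preparation. The submitters' processing notes name HISAT2 2.2.1 and GRCh38 (hg38). The deposited table gives unnormalized read counts and a length for each gene. Its counting tool, strand setting and annotation are not stated there. The deposited length equalled the merged exons of GENCODE release 29 for 58735 of 58735 genes, and it was the divisor for TPM, so genes with many exons used in few transcripts are understated. Of 11088 expressed protein-coding genes, 33.2% had a length over 1.5 times their longest transcript. Reads in overlapping genes or near-identical copies may be split or lost.

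Python 3.11.15 computed CPM and TPM over all genes, shares with 95% Wilson intervals, and SDs of log2(CPM + 0.5). The common dispersion came from edgeR 4.0.16 (R 4.3.3) with TMM scaling, and DESeq2 1.42.0 size factors were an alternative; the dispersion step was tested on simulated data. No p-value was computed, since there is a single group. Depth was 38132352, 35042563 and 35568711 reads, and 3 reads were taken as the limit of a 0. The genes named were the 25 nuclear protein-coding genes highest in TPM, the 5 other genes highest in CPM, the 8 most and 5 least variable genes at 10 CPM or more, members of 21 marker lists (438 genes) and up to 6 members of each of 31 families. Some list members are not reported here. Members and lists were chosen with earlier results of these data known. Promoter windows came from RefSeq (GRCh38.p14) for 14867 of 19891 protein-coding genes, matched by symbol. Alternatives were other minimums, CPM, the longest transcript, other denominators and scalings, and leaving out each library.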

Additional observations from a re-analysis of the deposited data

How the results depend on the processing

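Of 147 list counts recomputed under alternatives, 133 stayed within 1.5 times and 14 moved further. The islet count of 2 became 5 at 0.5 TPM, 4 at 1 CPM and 4 with the longest transcript. The leukocyte count of 3 became 5 at 0.5 TPM and 1 at 2 TPM. The hepatocyte count of 2 became 1 at 2 TPM, and the gastric count of 4 became 2 at 1 CPM. The intestinal count of 2 became 0 at 2 TPM and 1 with the longest transcript. The neuronal count of 1 became 2 at 0.5 TPM, 0 at 2 TPM and 2 at 1 CPM. The classical count of 5 became 3 at 2 TPM and 3 at 1 CPM. Longest transcript lengths for counts were tried after the data were seen.

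The 10 most abundant genes took 8.18% of protein-coding reads and 10.9% of TPM, the top 100 took 38% of TPM and the top 1000 took 72.8%. Mitochondrial genes took 2.14% with protein-coding genes only and 8.12% of TPM, and ribosomal protein genes 14.4% of TPM. The dispersion was 0.0487 without the filter on low counts, and 0.0232 to 0.0341 on leaving out single libraries, lowest without replicate 2. Leaving out single libraries gave 13880 to 14098 expressed genes. Of 53 levels recomputed, 4 rose over 1.5-fold with the longest transcript: RPL29 (1.61), KRT7 (1.66), KRT8 (1.71) and CDKN2A (2.40). No paired analysis was possible because only 1 group was used. Depth limits genes under about 1 CPM, where the median coefficient of variation was 57.2% against 29.4% from counting.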

Other observations

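Some genes outside the lists were picked out after their values were seen. CGA, the alpha subunit shared by the glycoprotein hormones, was at 148, 138 and 152 TPM in control replicates 1, 2 and 3. ALPP, the placental alkaline phosphatase, was at 28.2 ± 1.13 TPM (SD, n = 3), and GATA2, a factor of blood and trophoblast cells, at 89.3 TPM. The 3 libraries lay close together in CGA and ALPP. DDIT4, an inhibitor of mTOR signalling, was at 2709 TPM and NDRG1, induced by low oxygen, at 2468 TPM. Scaled by the longest transcript, CGA was at 235 TPM and NDRG1 at 4324 TPM, over 1.5 times these levels. SRGN, the core protein of the proteoglycan serglycin, was at 697, 499.5 and 437 TPM and was thus high in every library, not in replicate 2 alone. These values are descriptions with no test.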
